A study of Mus musculus with 9 samples.

Results

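Heme is an iron-porphyrin that serves as the prosthetic group of hemoglobin, mitochondrial cytochromes and many other enzymes, and nucleated cells make it themselves. Synthesis starts in mitochondria with the condensation of glycine and succinyl-CoA, continues in the cytosol, where the ring is built and trimmed, and ends in mitochondria, where the ring is oxidised and iron is inserted. The 7 enzymes described here are Alas1, which catalyses the first and rate-limiting step in non-erythroid cells, the cytosolic enzymes Alad, Uros and Urod, and Cpox, Ppox and Fech, which complete the ring and insert the iron. They were taken by gene symbol, as a pathway chosen with earlier results of these data known, and matched 7 of the 56691 genes in each deposited table; other genes of the pathway were not analysed here. All 7 of the 7 passed the filter on low counts.

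RNA-seq was performed on BV+ PGCLCs (primordial germ cell-like cells) and BV− somatic cells, sorted from embryoid bodies (EBs) of the mouse pluripotent stem cell line BVSC, which carries a Blimp1-mVenus (BV) and a Stella-CFP reporter. Cells held either a doxycycline (DOX)-inducible p20 vector with Nrf1 cDNA (NRF1 OE) or the empty p20 vector (Ctrl), and DOX at 1.5 μg/mL was present from day 2 to day 5 of differentiation in all 4 groups, so that Ctrl cells received DOX too. There were 2 libraries of BV+ NRF1 OE, 2 of BV+ Ctrl, 3 of BV− NRF1 OE and 2 of BV− Ctrl. The question was which transcripts differ when NRF1, a transcription factor of nuclear genes for mitochondria, is enforced during PGCLC formation. All groups come from a single reporter line, the labels call each sample pluripotent stem cells from EBs, and the study's methods call the replicates biological without saying which cultures the libraries of a group came from, so part of the spread that the p-values measure may be technical. EBs are mixed tissue, and in bulk samples fewer cells of a type and less RNA per cell cannot be told apart.

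The libraries held 13702162 to 19625460 counts, and 16903 genes were tested. Several measurements bear on the labels. Prdm1, which encodes Blimp1, had 60.1 ± 3.75 CPM (counts scaled to the TMM library size; mean ± SD, n = 2) in BV+ Ctrl and 57.96 ± 0.922 CPM (n = 2) in BV− Ctrl libraries, a log2 difference of 0.05 ± 0.17 (SE), so the sort is not seen in the transcript that the reporter reads. The germ cell markers Dppa3 and Nanos3 were lower in BV+ than in BV− libraries with NRF1 OE, by log2 differences of -0.65 and -1.04 (edgeR adjusted p = 0.00536 and 0.00350). Of the 8 primordial germ cell markers, 8 had counts in every group, and their summed CPM ranged from 364 to 381 in BV+ NRF1 OE, 366 to 368 in BV+ Ctrl, 451 to 539 in BV− NRF1 OE and 393 to 404 in BV− Ctrl. Nrf1 itself had 9.46 ± 0.354 FPKM (fragments scaled by gene length and library size) in BV+ NRF1 OE against 9.03 ± 0.0424 in BV+ Ctrl, and 11.7 ± 0.240 in BV− NRF1 OE against 9.99 ± 0.368 in BV− Ctrl (n = 2, 2, 3 and 2). The corresponding log2 differences of 0.10 ± 0.10 and 0.26 ± 0.10 did not pass the test (adjusted p = 0.489 and 0.0718), although with the offsets for base composition described below both did (0.33 and 0.51, adjusted p = 0.0467 and 0.0267), and gene counts do not separate the introduced cDNA from the endogenous transcript. Groups are therefore named by their labels throughout.

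Red blood cell precursors make large amounts of heme for hemoglobin, and their markers were low in these libraries. Klf1, a transcription factor of red cell precursors, had between 5 and 17 counts in each of the 9 libraries, and the summed CPM of 15 erythroid markers ranged from 11.2 to 11.6 in BV+ NRF1 OE, from 7.66 to 10.4 in BV+ Ctrl, from 3.91 to 8.62 in BV− NRF1 OE and from 3.91 to 6.30 in BV− Ctrl. Between 12 and 14 of the 15 had a count in a group. Tal1, an early blood and endothelial factor, contributed 5.96 ± 0.892 CPM (n = 2) to that sum in BV+ NRF1 OE and 1.02 ± 0.107 CPM (n = 3) in BV− NRF1 OE.

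All 7 enzymes had counts in every library. In FPKM, Urod, the decarboxylase that trims the side chains of the ring, was highest in 9 of 9 libraries, at 18.2 to 31.3 FPKM. Alad, which joins aminolevulinic acid molecules into porphobilinogen, followed at 10.5 to 18.3 FPKM. Alas1 (5.86 to 9.70 FPKM) and Cpox (6.04 to 8.30 FPKM), the oxidase of coproporphyrinogen, lay next and overlapped. Fech, the chelatase that inserts iron, had 4.14 to 5.02 FPKM. Ppox, which oxidises the ring to protoporphyrin, had 1.99 to 3.04 FPKM, and Uros, which closes the ring, had 1.67 to 2.59 FPKM, so the ranges of these last 2 also overlapped. Cpox exceeded Alas1 in 4 of 4 Ctrl libraries and in 1 of 5 NRF1 OE libraries, namely BV+ NRF1 OE replicate 2.

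Urod and Alad together held 56.4% to 57.2% of the summed FPKM of the 7 in the Ctrl libraries and 60.9% to 66.1% in the NRF1 OE libraries. The summed FPKM of the 7 ranged from 52.1 to 56.1 in Ctrl and from 59.7 to 75.7 in NRF1 OE libraries. Urod and Alad make up most of these sums, and the calls of both were lost with the offsets described below. The sums and shares were not tested. Within a library, the ratio of Alad to Urod in FPKM overlapped between the arms, at 0.522 to 0.620 in Ctrl and 0.567 to 0.649 in NRF1 OE libraries, and so did that of Alas1, the first enzyme, to Fech, the last, at 1.42 to 1.61 and 1.36 to 1.93. FPKM divides by the length that the authors counted over, which came to 13840 bases for Fech against 6571 for its longest transcript; the order and the shares depend on that length. Divided by the longest transcript instead, Urod was still highest (31.7 to 54.5 on the same scale), but Cpox lay above Alad in BV+ Ctrl (17.5 ± 0.0584 against 11.8 ± 0.215, n = 2) and in BV− Ctrl (17.6 ± 0.383 against 11.5 ± 0.557, n = 2). Alas1 (12.8 ± 0.108) also lay above Alad in BV− Ctrl, and Uros (2.72 to 4.24 over all libraries) was no longer below Ppox (2.03 to 3.11). On this scale the mean of Cpox exceeded that of Alas1 in every group. With NRF1 OE it was 15.0 against 11.9 in BV+ and 15.6 against 15.5 in BV− cells.

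**Figure D1:**
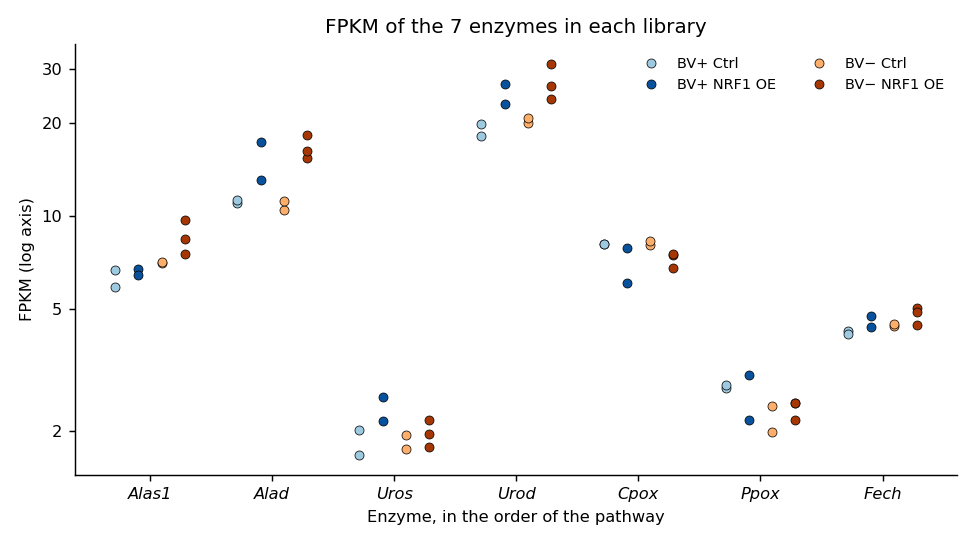
FPKM of the 7 enzymes on a log axis, in the order of the pathway, with 1 point for each of the 9 libraries and colours for the 4 groups. Urod is highest, at 18.2 to 31.3 FPKM, and Uros and Ppox are lowest, at 1.67 to 3.04 FPKM.

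Alas1 had 41.9 and 39.6 CPM in the BV+ NRF1 OE libraries and 40.3 and 35.3 CPM in BV+ Ctrl. In BV− cells it had 47.5, 60.5 and 53.7 CPM with NRF1 OE and 43.0 and 43.8 CPM in Ctrl. The BV+ groups overlapped, whereas all 3 BV− NRF1 OE libraries lay above both BV− Ctrl libraries, as for 29.4% of all genes tested. The log2 fold change of NRF1 OE against Ctrl was 0.11 ± 0.14 (SE) in BV+ and 0.31 ± 0.13 in BV− cells, and neither passed the test (edgeR quasi-likelihood F test, Benjamini-Hochberg adjusted p = 0.599 and 0.0965). The BV− value passed in 1 of 21 alternative fits, without BV− NRF1 OE replicate 1 (0.40, adjusted p = 0.0262). It was 0.19 without BV− NRF1 OE replicate 2 (adjusted p = 0.288) and 0.055 with the offsets described below (adjusted p = 0.74).

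Alad showed the largest averaged difference among the 7 without the offsets described below, with which Fech did. It had 33.0 and 24.5 CPM in BV+ NRF1 OE and 20.1 and 20.6 CPM in BV+ Ctrl libraries. In BV− cells it had 29.4, 34.6 and 31.5 CPM with NRF1 OE and 19.4 and 20.9 CPM in Ctrl. Every NRF1 OE library lay above every Ctrl library of both populations, as for 14.5% of all genes tested. The 2 BV+ NRF1 OE libraries differed most from each other. The log2 fold change was 0.66 ± 0.15 in BV− cells, which passed the test (adjusted p = 0.0317), 0.50 ± 0.16 in BV+ cells, which did not (adjusted p = 0.0716), and 0.58 ± 0.11 averaged over both (1.49-fold, 95% interval 1.26 to 1.76, adjusted p = 0.00549). The BV+ value was 0.27 without BV+ NRF1 OE replicate 1 (adjusted p = 0.488) and 0.70 without replicate 2 (adjusted p = 0.0265).

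Urod had 70.5 and 59.9 CPM in BV+ NRF1 OE and 50.3 and 46.0 CPM in BV+ Ctrl libraries. In BV− cells it had 63.3, 81.8 and 71.0 CPM with NRF1 OE and 51.5 and 54.0 CPM in Ctrl. As with Alad, all 5 NRF1 OE libraries lay above all 4 Ctrl libraries, as they did for 14.5% of all genes tested. The log2 fold change was 0.45 ± 0.13 in BV− cells (adjusted p = 0.0436), 0.44 ± 0.14 in BV+ cells (adjusted p = 0.0766) and 0.44 ± 0.10 averaged over both (1.36-fold, 95% interval 1.17 to 1.58, adjusted p = 0.00774).

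Uros, the third cytosolic enzyme, had 9.38 and 7.67 CPM in BV+ NRF1 OE against 7.08 and 5.82 CPM in BV+ Ctrl libraries. In BV− cells it had 7.16, 7.88 and 6.57 CPM with NRF1 OE and 6.87 and 6.25 CPM in Ctrl. The BV+ groups did not overlap, with NRF1 OE higher as for 38.1% of all genes tested, and the BV− groups did. Its values rest on at most 182 counts per library, the fewest of the 7, and the log2 fold changes of 0.41 ± 0.19 and 0.13 ± 0.18 did not pass the test (adjusted p = 0.164 and 0.607).

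Cpox was the only one of the 7 with a negative log2 fold change in both populations without the offsets for base composition described below, with which Ppox was negative in both too. It had 40.7 and 52.2 CPM in BV+ NRF1 OE against 52.8 and 52.9 CPM in BV+ Ctrl libraries, and 50.9, 45.5 and 51.6 CPM in BV− NRF1 OE against 53.1 and 55.2 CPM in BV− Ctrl libraries. All 5 NRF1 OE libraries lay below all 4 Ctrl libraries, as they did for 15.1% of all genes tested (32.0% within BV+ and 27.6% within BV− cells), with 52.2 CPM the highest against 52.8 CPM the lowest. The log2 fold changes of -0.19 ± 0.14 in BV+ and -0.13 ± 0.13 in BV− cells did not pass the test (adjusted p = 0.356 and 0.456), nor did the average of -0.16 ± 0.09 (adjusted p = 0.186).

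Ppox had 13.9 and 9.80 CPM in BV+ NRF1 OE against 12.3 and 12.5 CPM in BV+ Ctrl libraries, and 10.1, 11.2 and 11.5 CPM in BV− NRF1 OE against 8.89 and 10.8 CPM in BV− Ctrl libraries. The groups overlapped in both populations, with log2 fold changes of -0.06 ± 0.19 and 0.14 ± 0.18 (adjusted p = 0.834 and 0.58). Ppox shares 17.5% of its exon bases with B4galt3 on the opposite strand (median count 324), and the strand use of the counting is not stated, so reads of the overlap cannot be assigned to either.

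Fech had 61.1 and 65.1 CPM in BV+ NRF1 OE against 57.4 and 55.9 CPM in BV+ Ctrl libraries, and 62.2, 70.1 and 69.7 CPM in BV− NRF1 OE against 60.0 and 61.5 CPM in BV− Ctrl libraries. NRF1 OE libraries lay above the Ctrl libraries of their own population, by small steps. So they did for 38.1% of all genes tested in BV+ cells and 29.4% in BV− cells. The log2 fold changes of 0.16 ± 0.12 and 0.15 ± 0.11 did not pass the test (adjusted p = 0.352 and 0.314), nor did the average of 0.15 ± 0.08 (adjusted p = 0.134).

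**Figure D2:**
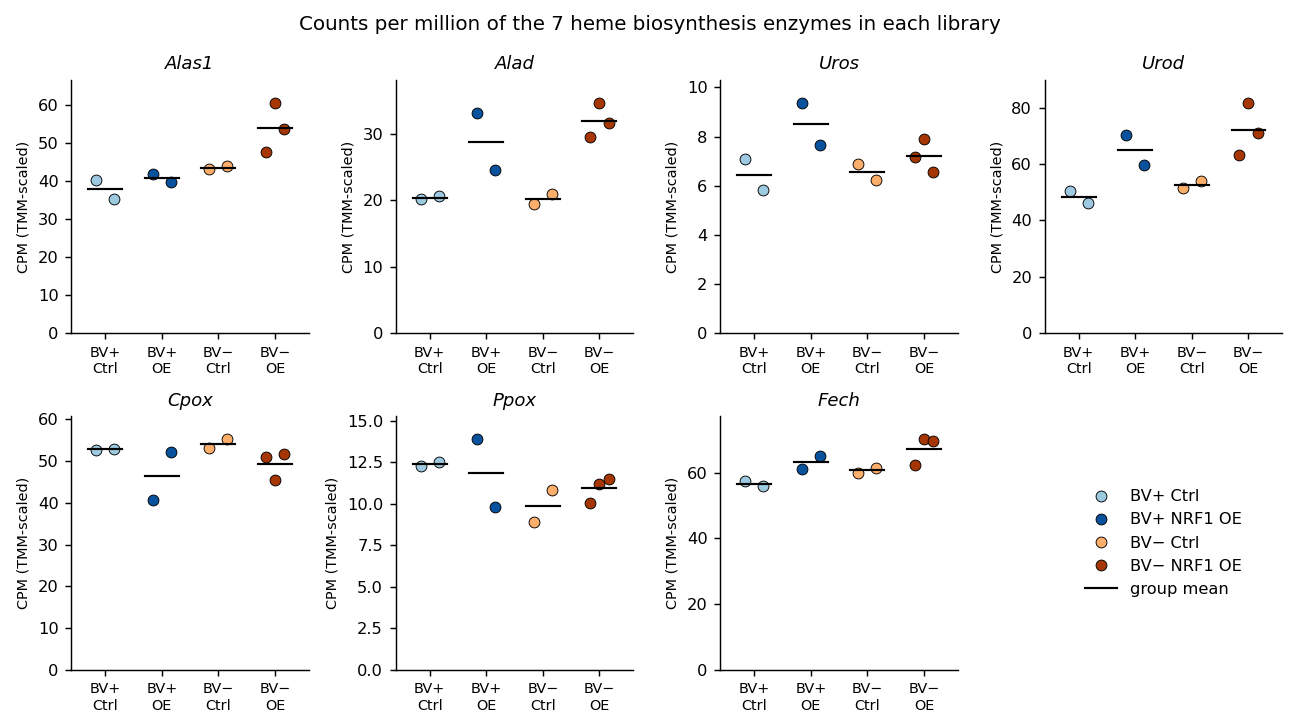
TMM-scaled CPM of each enzyme in the 9 libraries, by group, on axes that start at 0; points are libraries and bars are group means. For Alad and Urod all 5 NRF1 OE points lie above all 4 Ctrl points, as for 14.5% of all genes tested. For Cpox all 5 lie below, as for 15.1%, and for Ppox the groups overlap in both populations.

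Counted over the 7 enzymes, NRF1 OE against Ctrl gave 0 calls of 7 in BV+ cells at an adjusted p under 0.05, where 8.02% of all genes tested were called and 6.24% were called as higher. By an unadjusted p under 0.05, 2 of the 7 (Alad and Urod) passed in BV+ cells, near the background of 32.5%. DESeq2 called 0 of 7 on the same libraries (background 12.5%) and 1 of 7 on the BV+ libraries alone. For the latter fit no share of all genes is given here. In BV− cells 2 of 7 were called, both higher, where 17.2% of all genes were called and 10.2% were called as higher. There 3 of 7 passed by an unadjusted p (background 39.1%) and 2 by DESeq2 (background 23.8%). Averaged over the populations 2 of 7 were called, again Alad and Urod, where 41.7% of all genes were called and 23.1% were called as higher, with 3 by an unadjusted p (background 51.6%) and 2 by DESeq2 (background 39.6%).

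By the rule of the study's methods (p under 0.05 before adjustment and a log2 fold change beyond 0.58 either way), 0 of 7 passed in BV+ cells (background 17.0%) and 1 of 7, Alad, in BV− cells (background 16.0%). By overlap of libraries, 4 of 7 enzymes lay higher with NRF1 OE in BV+ cells (Alad, Uros, Urod and Fech; background 38.1%), 4 of 7 in BV− cells (Alas1, Alad, Urod and Fech; background 29.4%) and 2 of 7 over both together (background 14.5%). The median log2 fold change of the 7 was 0.16 in BV+ cells, 0.15 in BV− cells and 0.21 on average, beside 0.04, 0.01 and 0.03 over all genes tested. The 2 calls in BV− cells were both lost when BV+ Ctrl replicate 1 or 2, BV− Ctrl replicate 1 or 2, or BV− NRF1 OE replicate 3 was left out, and Urod alone was lost without BV− NRF1 OE replicate 2, whereas leaving out any 1 library left 2 or 3 calls on average over the populations. Without BV+ NRF1 OE replicate 2, which leaves 1 library in that group, Alad had 0.70 in BV+ cells. In BV+ cells Urod was called without BV− NRF1 OE replicate 1, and both Alad and Urod without BV− NRF1 OE replicate 2. The shares of all genes called in these fits are not given here, so the calls have no background beside them.

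The change with NRF1 OE followed the base composition of transcripts over the whole table. Libraries differed in how their values ran against transcript GC content, with Spearman correlations over 12702 genes of -0.602 to -0.515 in the Ctrl libraries and -0.00466 to 0.695 in the NRF1 OE libraries, so the arm and this trend cannot be told apart. In genes of 56% to 58% GC, the bin that holds Alad (56.2%), the median averaged log2 fold change was 0.36 and 51.8% of genes were called as higher. In genes of 52% to 54% GC, which hold Urod (53.9%), Alas1 (53.5%) and Ppox (53.1%), the median was 0.23 and 34.5% were called as higher. The bin of 50% to 52%, with Uros (50.3%), had a median of 0.08. The bin of 46% to 48%, with Cpox (47.7%) and Fech (46.0%), had a median of -0.17, so that Cpox lay at the level of its bin and Fech above it.

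**Figure D3:**
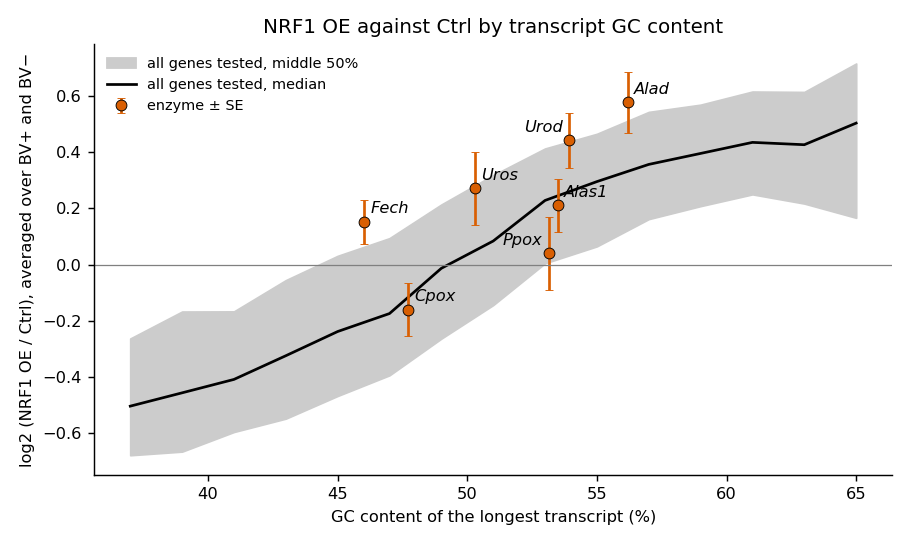
Averaged log2 fold change of NRF1 OE against Ctrl over the GC content of the longest transcript; the line is the median of all genes tested in bins of 2% and the band is the middle 50% of genes. The enzymes (points, ± SE) run from Fech at 46.0% to Alad at 56.2% GC, with Fech, Alad and Urod above the band and the others within it.

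With offsets for the trend of each library over GC content and transcript length, the calls among the 7 changed. Alad had 0.20 ± 0.08 on average (adjusted p = 0.0809) and 0.23 ± 0.11 in BV− cells (adjusted p = 0.209). Urod had 0.13 ± 0.06 on average (adjusted p = 0.131) and 0.08 ± 0.08 in BV− cells (adjusted p = 0.591). Fech passed the test at 0.45 ± 0.09 on average (adjusted p = 0.00391) and at 0.50 ± 0.12 in BV− cells (adjusted p = 0.0354), with 0.40 ± 0.13 in BV+ cells (adjusted p = 0.0567). Alas1 averaged -0.0016 and Cpox -0.08.

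With offsets, 1 of 7 enzymes was thus called on average, where 25.4% of all genes were called, 1 of 7 in BV− cells (background 5.19%) and 0 of 7 in BV+ cells (background 12.4%; 0 by DESeq2 on the same libraries without offsets). Nrf1 passed the test with offsets, at 0.42 on average (adjusted p = 0.00204), against 0.18 without (adjusted p = 0.0558). Which enzyme of the 7 is called as higher, Alad and Urod or Fech, thus depended on whether this trend was modelled, and the source of the trend was not tested.

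**Figure D4:**
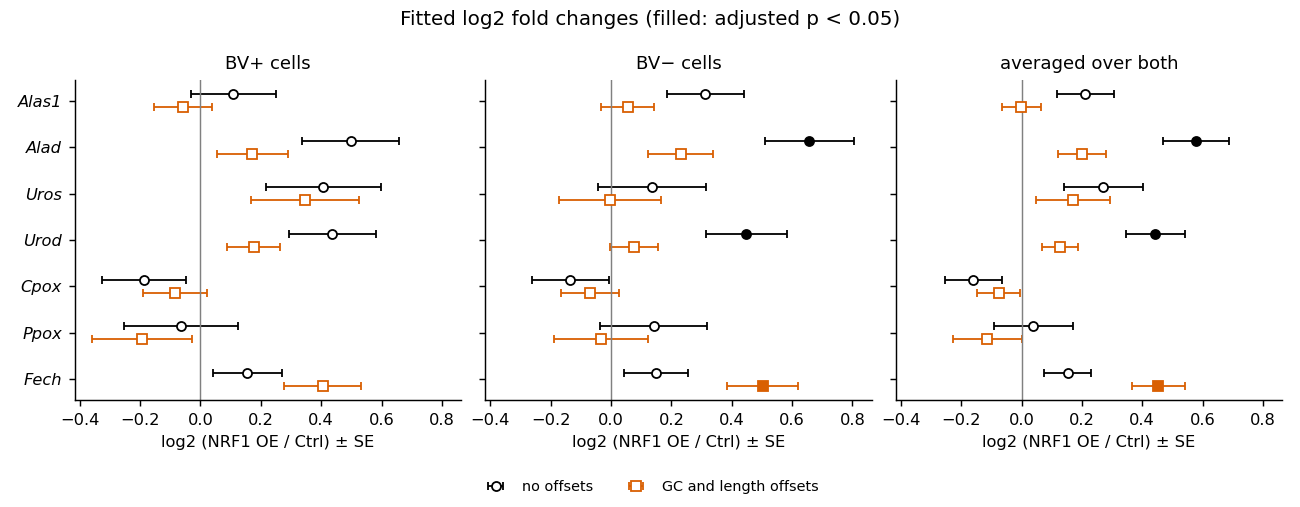
Fitted log2 fold change of NRF1 OE against Ctrl (± SE) for each enzyme in BV+ cells, in BV− cells and averaged, without (circles) and with (squares) offsets for GC content and length; filled symbols have an adjusted p under 0.05. Alad and Urod are filled without offsets in BV− cells and on average, and Fech is filled with offsets.

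The response to NRF1 OE was not found to differ between the populations. The difference of the log2 fold changes, BV+ less BV−, ran from -0.21 ± 0.26 for Ppox to 0.27 ± 0.26 for Uros, and 0 of 7 were called by edgeR at an adjusted or unadjusted p under 0.05 and 0 of 7 by DESeq2. Over all genes the background was 0%, with 932 genes (5.51%) at an unadjusted p under 0.05 and 23 (0.136%) called by DESeq2. For Alad the difference was -0.16 with a 95% interval of -0.64 to 0.32, and for Urod it was -0.01 with an interval of -0.44 to 0.41, so both intervals cover differences of either sign.

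Between BV+ and BV− cells, 0 of 7 enzymes were called in Ctrl libraries by edgeR, 0 at an unadjusted p under 0.05 and 0 by DESeq2 (backgrounds 1.12%, 7.77% and 1.79%). The largest value was that of Ppox, at 0.32 ± 0.19 (adjusted p = 0.809). With NRF1 OE, 0 of 7 were called (background 13.8%), 1 at an unadjusted p under 0.05 (background 28.2%) and 0 by DESeq2 (background 13.7%). That enzyme was Alas1, whose 2 BV+ NRF1 OE libraries (39.6 and 41.9 CPM) lay below the 3 BV− NRF1 OE libraries (47.5 to 60.5 CPM), with a log2 difference of -0.40 ± 0.13 (edgeR adjusted p = 0.05996). It passed in 2 of 21 alternative fits, with the GC content and length offsets (-0.30 ± 0.09, adjusted p = 0.0273; background 19.6%) and without BV− NRF1 OE replicate 1 (-0.49, adjusted p = 0.0192). With the offsets and a replicate block it did not (-0.29, adjusted p = 0.109), and over all 21 it ranged from -0.49 to -0.28, with adjusted p up to 0.221. The summed germ cell markers were also higher in these 3 BV− libraries (451 to 539 against 364 to 381 CPM), and their part in the Alas1 difference was not tested.

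The promoter windows of RefSeq (build GRCm38.p6; 250 bases before and 50 bases after the annotated start) were searched for letters of the NRF1 recognition sequence on both strands. A table entry was matched for 6 of the 7 enzymes, with 9 windows in all. No entry was matched for Fech, so its promoter was not searched. The deposited tables use GRCm39, so positions belong to the RefSeq build only. The palindrome part TGCGCATGC (1.52% of the 32851 windows in the table) was in none of the 9 windows as an exact match. Alas1 site 2, printed below, holds all of this motif but its first T. The capitals of that site read the same on both strands and so form a palindrome themselves. The looser GCGCNTGCG (6.31% of all windows) was found in windows of Alas1 and Uros, GCGCATG (3.91%) in those of Alas1, and TGCGCA (7.76%) in that of Cpox. These motifs overlap each other in part, and a match is a description of letters, with no binding measured here. The study did measure NRF1 binding in BV+ PGCLCs by ChIP-seq, and those data were not compared with the matches.

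The stretches that hold the matches are printed because they show which enzymes carry NRF1-like letters at the start; capitals mark the matched bases, and each reads 5′ to 3′ on the strand of its gene. Alas1 site 1 lies at chr9:106247936-106247965 and Alas1 site 2 at chr9:106247906-106247935, both on the minus strand and in annotated Alas1 exon sequence. The Uros site lies at chr7:133709324-133709353 on the minus strand, and the Cpox site at chr16:58670184-58670213 on the plus strand.
Alas1 site 1: ggcttcggcgcGCGCGTGCGcgcggcaggc
Alas1 site 2: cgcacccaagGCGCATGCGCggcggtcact
Uros site: ccggtcacactGCGCCTGCGcgagtcccgc
Cpox site: gacccacctctgTGCGCAgggtgcagtctt

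Alad and Urod, the enzymes whose transcripts passed the test without offsets, held none of the 4 motifs in their windows, nor did Ppox. Fech, which passed with offsets, had no window to search. The 250 bases before a RefSeq start of Alad and of Urod are given because both were called as higher without offsets. They lie at chr4:62520064-62520313 (Alad) and chr4:116994414-116994663 (Urod), both on the minus strand and outside annotated exons, and are in lower case throughout since no letters matched.
Alad upstream: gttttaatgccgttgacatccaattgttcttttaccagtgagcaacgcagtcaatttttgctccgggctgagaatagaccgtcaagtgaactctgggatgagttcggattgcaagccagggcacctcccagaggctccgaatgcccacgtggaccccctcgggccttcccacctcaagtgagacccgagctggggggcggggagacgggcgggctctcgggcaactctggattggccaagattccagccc
Urod upstream: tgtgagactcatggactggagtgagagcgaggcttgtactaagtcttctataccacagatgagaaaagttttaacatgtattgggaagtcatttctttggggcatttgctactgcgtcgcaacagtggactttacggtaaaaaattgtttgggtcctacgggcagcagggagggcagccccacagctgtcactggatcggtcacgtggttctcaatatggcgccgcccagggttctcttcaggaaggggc

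The genes around the pathway were grouped by role, and the counts below are for NRF1 OE against Ctrl averaged over both populations (background 23.1% higher and 18.6% lower, and with offsets 14.5% higher and 10.9% lower). Of 18 tested genes for precursor supply and mitochondrial transport, 7 rose, 3 fell and 8 did not pass. Abcb6, a porphyrin transporter, rose by 0.59 ± 0.14 in log2 units (adjusted p = 0.00989). Slc25a40, a mitochondrial glutathione carrier, fell by 0.81 ± 0.16. In BV+ cells Fam210b, a mitochondrial protein of erythroid heme synthesis, rose by 0.66 ± 0.17 and the mitochondrial iron importer Slc25a37 fell by 0.59 ± 0.13. With offsets 4 rose and 3 fell, Abcb6 among those that rose (0.38) and Slc25a40 among those that fell (-0.39).

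Of 11 tested genes for heme breakdown, export and transport, 6 rose, 1 fell and 4 did not pass. Blvrb, which reduces biliverdin, rose by 0.63 ± 0.10, and the heme-binding protein Hebp1 by 0.50 ± 0.09 (adjusted p = 0.00471 and 0.00513). The heme exporter Flvcr1 fell by 0.41 ± 0.15 (adjusted p = 0.04997). With offsets 4 rose and 0 fell, Blvrb (0.33) and Hebp1 (0.41) among them. Hmox1, the inducible heme oxygenase, was lower in BV+ than in BV− cells with NRF1 OE, by a log2 difference of -0.50 ± 0.11.

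Of 14 genes for iron uptake, storage and export, 4 rose, 2 fell and 8 did not pass. Ftl1, the ferritin light chain, rose by 0.59 ± 0.16, and Ireb2 and Tfrc, an iron sensor and the transferrin receptor, fell by 0.74 ± 0.16 and 0.53 ± 0.15. With offsets Ireb2 had -0.27 and still passed, whereas Ftl1 (0.12) and Tfrc (-0.11) did not. With offsets, the average of Ftl1 joins values of opposite sign. Ftl1 rose in BV+ cells (0.61, edgeR adjusted p = 0.0149) and had -0.38 in BV− cells (adjusted p = 0.0973). The difference of effects between populations, tested without offsets, was called for 0 of the 14 genes, beside a background of 0% of all genes tested. With that background, the count cannot decide whether the effect on Ftl1 differs between the populations. Ftl1 belongs to a family with near-identical pseudogenes, so its counts are uncertain. Heph, a copper-dependent ferroxidase, was higher in BV+ than in BV− cells by 1.63 ± 0.19 in Ctrl and 2.70 ± 0.17 with NRF1 OE.

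Of 14 genes for iron-sulfur cluster assembly, 7 rose, 2 fell and 5 did not pass. The glutaredoxin Glrx5 rose by 0.50 ± 0.09 (adjusted p = 0.00507) and by 0.29 with offsets, where 5 rose and 2 fell. Of 13 genes for heme a and heme c attachment and small hemoproteins, 6 rose, 2 fell and 5 did not pass. Cyc1, the cytochrome c1 subunit of complex III, rose by 0.46 ± 0.08 (adjusted p = 0.00513) but had 0.0065 with offsets, where 5 rose and 0 fell. Hccs, which attaches heme to cytochrome c, fell by 0.49 ± 0.15 (adjusted p = 0.0254) and did not pass with offsets.

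Of 13 tested regulators of Alas1 and heme-responsive factors, 2 rose, 4 fell and 7 did not pass. Gabpa, an ETS factor of nuclear genes for mitochondria, fell by 0.75 ± 0.17, the heme-binding receptor Nr1d2 by 0.72 ± 0.17 and Hif1a by 0.50 ± 0.13 (adjusted p = 0.00877, 0.0104 and 0.0126). With offsets Gabpa (-0.37) and Nr1d2 (-0.36) still passed and Hif1a (-0.12) did not. The median averaged log2 fold changes of these groups, in the order given, were 0.07, 0.25, 0.16, 0.25, 0.23 and -0.01, beside 0.21 for the 7 enzymes and 0.03 for all genes tested. With offsets they were -0.03, 0.17, 0.10, 0.14, 0.02 and -0.08, beside 0.13 for the enzymes.

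The genes with the pattern most like each enzyme were sought by the Pearson correlation of log2 CPM over the 9 libraries, among genes with a mean of at least 10 CPM. For Urod they were Psmd13 (r = 0.997) and Ddost (r = 0.994), for Alad Dtwd1 (r = 0.997) and Pex14 (r = 0.991), and for Alas1 Cherp (r = 0.990) and Cndp2 (r = 0.985). For Fech they were Pfkm (r = 0.982) and 2310061I04Rik (r = 0.980), for Cpox Usp42 (r = 0.982) and Klhl2 (r = 0.978), for Uros 1110051M20Rik (r = 0.947) and Gla (r = 0.924), and for Ppox Rasgrp4 (r = 0.923) and Zfp410 (r = 0.899). These are the highest of 9491 candidates (9492 for Uros), the 9 points share libraries and their base composition trend, and no pair of enzymes was among them.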

How the data were processed

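RNA-seq tables of 9 libraries were used, with groups and replicate numbers taken from the sample titles. The authors trimmed the reads, aligned those left with HISAT2 2.0.1 (build GRCm39), used HTSeq 0.6.1 for counting (versions also in the submitters' processing notes), and deposited a raw count per gene. The authors also deposited FPKM from the same counts, used here only for levels between genes. Whether counting used strand is not stated.

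Counts were fitted in R 4.3.3 with edgeR 4.0.16 (TMM, filterByExpr, quasi-likelihood F test, 1 term for each of the 4 groups), leaving 16903 of 33142 genes with a count. The BV+ versus BV− comparisons and the NRF1 OE comparisons share libraries. Tests were two-sided, p-values were adjusted by Benjamini-Hochberg over all genes, and a call is an adjusted p under 0.05. Log2 CPM used a prior count of 2. Intervals are 95%. GC content and length came from the longest transcript of a GRCm38 annotation (98.6% of genes tested); offsets were a spline with 5 degrees of freedom per library. Alternatives included DESeq2 1.42.0, other scalings and filters, thinning, a replicate term and each library left out. The fits were also run on simulated counts with known changes. That simulation held no trend over GC content, so it does not bear on the calls that depended on this trend.

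The members and all gene lists were chosen with earlier results of these data known. From each list, at most 3 called genes per comparison with the largest change and a mean of at least 1 CPM could be named, together with the 7 enzymes, Nrf1, defining markers and the 2 most similar genes per enzyme. Of 139 listed genes beside the members, 1 was not found by symbol. Some listed genes are not reported here by name, and Klf1 was picked from its list after its values were seen. Replicates of a group differed by more than sampling noise in every pair (chi-square per degree of freedom 2.99 to 34.7).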

Additional observations from a re-analysis of the deposited data

How the results depend on the processing

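The 2 calls on average over the populations, Alad and Urod, were kept under the other scalings, filters and DESeq2, after thinning, with the replicate block and with any 1 library left out, but not with the offsets for GC content and length (1 call, Fech) or these with the block (1 call, Fech). The rule of the study's methods, which asks for a log2 fold change beyond 0.58, gave 0. In BV− cells there was 1 call by that rule, by DESeq2 on the BV− libraries alone, by library size alone and with the offsets (Fech), and 0 in a fit of only the groups compared. In BV+ cells 1 was called by DESeq2 on the BV+ libraries alone, in a fit of only the groups compared and after thinning to the smallest library, and for BV+ against BV− with NRF1 OE 1 (Alas1) with the offsets. With a library left out, calls ranged from 0 to 2 in BV+ cells, from 0 to 3 in BV− cells, from 2 to 3 on average and from 0 to 1 for BV+ against BV− with NRF1 OE. Over all alternatives, all genes called ranged from 0 to 4957 in BV+ cells, from 0 to 5847 in BV− cells, from 2314 to 8183 on average, from 31 to 971 and 786 to 3321 for BV+ against BV− in Ctrl and NRF1 OE, and from 0 to 757 for the difference of effects. All genes called are given as a range and not for each fit, so the counts of enzymes in single fits have no background beside them. The cause of the changes between fits was not tested.

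The replicate numbers are not said to mark a shared culture, and deviations of same-numbered libraries correlated between -0.295 and 0.243, which with 2 numbers per comparison does not show whether they are paired. For BV− NRF1 OE with BV− Ctrl the 2 correlations were 0.204 and 0.243. With the replicate block, 0 of 7 were called in BV− cells (Alad adjusted p = 0.107, Urod 0.128) and 2 on average; with the block and the offsets, 0 in BV− cells and 1 on average.

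Several values near 0 changed sign. With the offsets, NRF1 OE against Ctrl was -0.058 for Alas1 in BV+ cells and -0.0016 on average, -0.033 for Ppox in BV− cells and -0.11 on average, and -0.0038 for Uros in BV− cells. In the same fit BV+ against BV− was 0.0091 for Alad and 0.047 for Urod with NRF1 OE and 0.022 for Uros in Ctrl, and the difference of effects was -0.098 for Fech and 0.0998 for Urod. With the block and the offsets these were -0.058, -0.0058, -0.075 and -0.14, with no change of sign for Uros in BV− cells, then 0.019, 0.064, 0.021, -0.099 and 0.12, and 0.021 for the difference of effects of Cpox. Alad in BV+ against BV− Ctrl was -0.0033 by DESeq2, -0.0032 with its size factors, -0.039 after thinning and -0.0074 with a minimum mean of 10 counts. The difference of effects was 0.00011 for Urod by DESeq2, 0.027 for Cpox and 0.024 for Urod after thinning, 0.0040 and 0.046 with the minimum of 10 counts, and for Fech -0.014 without a filter and -0.042 with upper-quartile factors.

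With a library left out, the values that changed sign ranged, for BV+ against BV− Ctrl, from -0.041 to 0.044 (Alad) and -0.17 to 0.11 (Uros), and with NRF1 OE from -0.38 to 0.052 (Alad), -0.28 to 0.083 (Cpox) and -0.16 to 0.34 (Ppox). For NRF1 OE against Ctrl of Ppox they ranged from -0.33 to 0.17 in BV+ cells and -0.094 to 0.16 on average, and for the difference of effects from -0.39 to 0.039 (Alad), -0.24 to 0.12 (Cpox), -0.049 to 0.052 (Fech), -0.48 to 0.021 (Ppox) and -0.14 to 0.0999 (Urod). Uros and Ppox had the fewest counts of the 7, which limits the precision of their values.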

Other observations

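The other marker lists were summed as a description of the sorted cells. The 8 pluripotency markers held 2358 to 2735 CPM in BV+ NRF1 OE, 2792 to 2935 in BV+ Ctrl, 3181 to 3358 in BV− NRF1 OE and 3065 to 3138 in BV− Ctrl libraries. The 9 mesoderm markers held 35.6 to 48.2, 29.7 to 34.0, 17.4 to 20.3 and 25.8 to 27.1 CPM in the same order. Of the 7 mesoderm markers tested, 1 was called as higher in BV+ than in BV− cells in Ctrl and 0 as lower. That marker was Kdr, a receptor of blood and vessel progenitors (1.75 ± 0.27 on the log2 scale). With NRF1 OE, 2 were called as higher (Kdr by 3.73 ± 0.24 and Hand1 by 4.11 ± 0.52) and 0 as lower. Over all 16903 genes tested, 186 were called as higher and 4 as lower in Ctrl, and 1674 and 651 with NRF1 OE. Calls over all genes thus also ran mostly upward, and this background holds for the neuroectoderm markers below too. The 7 endoderm markers held 9.58 to 13.4, 14.9 to 16.2, 14.0 to 23.4 and 20.2 to 22.9 CPM, and the 6 neuroectoderm markers 211 to 246, 174 to 187, 142 to 166 and 156 to 171 CPM. Of the 6 neuroectoderm markers, 1 (Nes) was called as higher in BV+ cells in Ctrl, and with NRF1 OE 2 were (Sox1 and Nes), while Otx2 was lower (-0.43 ± 0.13, edgeR adjusted p = 0.0461). The summed mesoderm and neuroectoderm markers were higher in each BV+ library than in the BV− libraries of the same arm. The summed pluripotency, endoderm and primordial germ cell markers were lower in each BV+ library than in those BV− libraries. No result on the heme enzymes was tested against these sums.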
